A study of Mus musculus with 15 samples.

Results

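*KEAP1* KO #3 is 1 of 3 clonal lines made by CRISPR against *Keap1* in LL2, the mouse Lewis lung carcinoma line. Its 3 samples were compared here with the 3 samples of LL2 WT, the parental line, that is, with 6 of the 15 samples of the series and 2 of its 5 lines. The features described are the 14652 of 35880 genes whose CPM, read counts scaled to a common total, summed to at least 3 over the 15 samples. *KEAP1* KO #1 and *KEAP1* KO #2, also with 3 samples each, entered to tell which changes of *KEAP1* KO #3 they did not share. The 3 samples of an *NRF2* KO clone entered the common estimate of the spread, and their levels are otherwise given for *Pcdhac2* only. Every sample carries the LL2/Luc2 label, was grown in DMEM with serum and received no further treatment. Each KO line grew from 1 sorted cell after nucleofection of a plasmid with Cas9, GFP and a guide RNA, whereas LL2 WT is the parental line and no source used here calls it a clone. The effect of the KO and the make-up of the founder cell therefore cannot be told apart within *KEAP1* KO #3 alone.

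KEAP1 is the substrate adaptor of a cullin-3 ubiquitin ligase that marks the transcription factor NRF2 for degradation. When KEAP1 is lost, NRF2 accumulates, pairs with small MAF proteins at antioxidant response elements and turns on genes for glutathione synthesis and conjugation, NADPH supply, quinone and aldehyde reduction, heme breakdown and the export of conjugates. *KEAP1* mutations are frequent in human lung adenocarcinoma, where they are known for resistance to oxidants, drugs and immune checkpoint blockade.

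The CPM of a sample summed to between 998941 and 999306, and between 17270 and 19750 genes per sample were above 0 (17270 to 19565 in *KEAP1* KO #3, 18357 to 18742 in LL2 WT). The number of reads per sample is unknown, so 0.1 CPM, which is 3 reads at the average depth the methods state, served as an approximate floor that covers counting error only. Where all samples of a group were at or under that floor, the fold is a bound, the mean of the other group over the floor. Log2 fold changes are on the scale of log2(CPM + 0.1), which understates changes of genes with low levels, and were tested with limma in 1 model over all 5 lines. A gene was called when its Benjamini-Hochberg adjusted p over all 14652 genes was under 0.05 and its log2 fold change exceeded 1 in size. *Keap1* itself lay at 24.03, 21.98 and 22.9 CPM in LL2 WT against 3.78, 6.13 and 6.83 CPM in *KEAP1* KO #3 (log2 fold change −2.06, standard error 0.21, adjusted p = 1.28e-05), and the groups did not overlap. The replicates are biologic triplicates by the methods. *Nfe2l2*, the gene of NRF2, was lower by less than the threshold of a call (−0.67, adjusted p = 0.00132). The epithelial markers summed to between 592 and 667 CPM in LL2 WT and to between 537 and 639 CPM in *KEAP1* KO #3, nearly all of it from *Krt8* and *Krt18*, while *Epcam*, *Cdh1* and *Cldn4* were at or under the floor in both lines. Of 5 lung epithelial markers, *Nkx2-1*, *Scgb1a1* and *Foxj1* were at or under the floor in both lines, and *Sftpc* lay between 0.0537 and 0.368 CPM in LL2 WT and at 0 in *KEAP1* KO #3. *Sftpb*, the only marker of that list that passed the filter, was called higher, from at most 0.0907 CPM in LL2 WT to between 0.574 and 0.837 CPM in the clone. In bulk samples such as these, fewer cells of a type and less RNA per cell cannot be told apart.

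In *KEAP1* KO #3, 1967 of 14652 genes (13.4%) were called against LL2 WT. Of these, 892 (6.09%) were higher and 1075 (7.34%) were lower. The 3 samples of *KEAP1* KO #3 lay above every LL2 WT sample for 877 of the 892 genes and below every LL2 WT sample for 1028 of the 1075. Over all genes tested, called or not, this held for 22% and 18%. All genes had a median log2 fold change of 0.02, against 1.84 for the genes called higher and −1.79 for those called lower. The 10 largest rises with at least 5 CPM were those of *Gsta1*, *Gsta2*, *Gsta3*, *Gm3776*, *Prl2c2*, *Prl2c3*, *Selp*, *Aldh3a1*, *Il36g* and *Krt76*. The 10 largest falls were those of *Col3a1*, *Col6a2*, *Dkk2*, *Tmem119*, *Gas1*, *Pde4b*, *Adcyap1r1*, *Pcna-ps2*, *Rab3il1* and *Gm5537*. The counts of gene lists given below stand against these shares over all genes, 6.09% higher and 7.34% lower. Medians of gene lists given below with a range are followed by their lowest and highest value when libraries were left out.

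**Figure D1:**
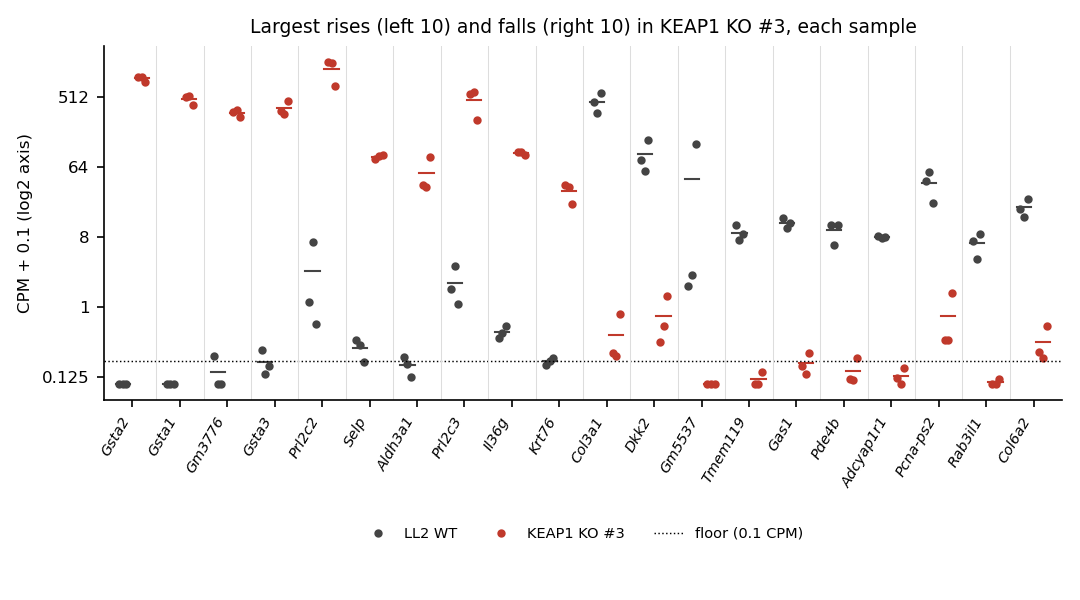
Levels of the 10 genes with the largest rise (left) and the 10 with the largest fall (right) in *KEAP1* KO #3 (red) against LL2 WT (grey). Each point is 1 sample, the short bars are the means of 3 samples, the y axis is CPM + 0.1 on a log2 axis and the dotted line marks the floor of 0.1 CPM. The samples of the 2 lines do not overlap for any of the 20 genes.

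Glutathione transferases, which couple glutathione to electrophiles, held the largest rises. Of 22 tested genes of this list, 7 rose and 0 fell (2 fell without *KEAP1* KO #3 replicate 3, and 1 without replicate 2 of *KEAP1* KO #3 or LL2 WT, without replicate 2 or 3 of *KEAP1* KO #2 or without replicate 3 of every line). The list had a median log2 fold change of 0.53 (0.35 to 0.65), against 0.02 over all genes. *Gsta2* was at 0 in each LL2 WT sample and at 921, 911 and 797 CPM in *KEAP1* KO #3. *Gsta1* was likewise at 0 in LL2 WT and at 512, 526 and 395 CPM in the clone. *Gsta3*, another alpha-class enzyme, lay at 0.179, 0.0343 and 0.0718 CPM in LL2 WT against 328, 306 and 445 CPM in *KEAP1* KO #3. All 3 genes thus went from at most 0.179 CPM to far higher levels in every sample of the clone, and for *Gsta3* the log2 fold change was 10.90 (standard error 0.35, adjusted p = 3.55e-10). Of the 31-base stretches in the transcripts of *Gsta1* and *Gsta2*, 92.9% and 60.7% also occur in other genes, so the authors' counting could have split reads between them. Of the other genes described by their levels, *Akr1c13*, *G6pdx*, *Me1*, *Il11ra1* and *Spry1* share between 23.1% and 57.7%. *Mgst1*, the membrane-bound microsomal transferase, lay at 5.09, 4.82 and 7.11 CPM in LL2 WT against 163, 165 and 176 CPM in *KEAP1* KO #3 (log2 fold change 4.89, standard error 0.20, adjusted p = 3.55e-09).

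Genes that make and recycle glutathione rose beside them. Of 21 tested genes, 7 rose (*Slc7a11*, *Gclc*, *Gclm*, *Gss*, *Gsr*, *Ggt1* and *Glul*) and 1 fell, *Cbs*, of the route from methionine to cysteine. *Cbs* lost its call without LL2 WT replicate 2 (−1.38) or *KEAP1* KO #3 replicate 1 or 2 (−1.54 and −1.66). The list had a median of 0.47. *Slc7a11*, the cystine importer that supplies cysteine, lay at 5.54, 1.81 and 5.41 CPM in LL2 WT against 97.8, 96.7 and 104 CPM in *KEAP1* KO #3. The samples of LL2 WT were scattered, and those of the clone lay close together and above them (log2 fold change 4.67, standard error 0.43, adjusted p = 4.58e-06). *Gclm*, the modifier subunit of the ligase that joins glutamate to cysteine, lay at 57.4, 76.4 and 42.2 CPM in LL2 WT against 623, 579 and 495 CPM in *KEAP1* KO #3 (log2 fold change 3.302, standard error 0.21, adjusted p = 1.94e-07). *Gclc*, the catalytic subunit of the same ligase, changed by 3.53 (adjusted p = 3.13e-10), and no sample of either gene overlapped between the lines.

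The 250 bases ahead of the transcription start of *Gclm*, *Gsta3* and *Mgst1* are shown as windows that hold TGACNNNGC. This is the core of the antioxidant response elements through which NRF2 is known to act. Windows without a match were not printed. The windows shown come from RefSeq for GRCm38.p6, plus strand, and capitals mark the match to TGACNNNGC, read on both strands. The windows are chr3:122245307-122245556, chr1:21240335-21240584 and chr6:138140277-138140526 (the first of 2 start sites), and the match begins 134, 121 and 56 bases upstream of the start, on the minus, plus and minus strand.
Gclm: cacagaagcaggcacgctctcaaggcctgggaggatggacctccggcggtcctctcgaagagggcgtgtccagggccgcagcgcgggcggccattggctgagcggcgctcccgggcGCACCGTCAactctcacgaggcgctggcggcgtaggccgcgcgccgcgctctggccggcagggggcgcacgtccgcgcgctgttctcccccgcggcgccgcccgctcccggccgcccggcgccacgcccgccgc
Gsta3: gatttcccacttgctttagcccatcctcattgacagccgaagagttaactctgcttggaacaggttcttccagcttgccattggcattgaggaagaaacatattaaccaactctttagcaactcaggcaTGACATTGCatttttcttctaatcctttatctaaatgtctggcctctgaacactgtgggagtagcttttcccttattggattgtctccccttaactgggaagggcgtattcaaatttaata
Mgst1: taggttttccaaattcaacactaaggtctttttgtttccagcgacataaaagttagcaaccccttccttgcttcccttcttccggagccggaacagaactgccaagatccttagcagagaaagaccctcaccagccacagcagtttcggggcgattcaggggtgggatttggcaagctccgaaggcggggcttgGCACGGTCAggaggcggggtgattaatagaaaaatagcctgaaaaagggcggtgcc
At least 1 match to TGACNNNGC stood in 10.16% of 32851 such windows of the genome. Of tested genes with a window, 13.7% of 10126 had one, as did 14.98% of the 614 called higher and 12.03% of the 765 called lower. The shares of the genes called higher and of all tested genes lie close together, and a match describes letters in a window, not a binding site.

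Enzymes that reduce or oxidize quinones, aldehydes and drugs changed in both directions, with the larger changes upward. Of 41 tested aldehyde dehydrogenases and carbonyl reductases, 9 rose and 3 fell, although the median of the list was −0.13 (−0.25 to −0.015). *Nqo1*, the quinone reductase, lay at 28.3, 36.5 and 26.1 CPM in LL2 WT against 493, 468 and 502 CPM in *KEAP1* KO #3, with no overlap (log2 fold change 4.02, standard error 0.14, adjusted p = 6.38e-10). *Aldh3a1*, an aldehyde dehydrogenase, went from at most 0.127 CPM to 36.8, 34.6 and 84.6 CPM (log2 fold change 8.13, standard error 0.41, adjusted p = 2.48e-08). *Akr1c13*, an aldo-keto reductase, was at or under the floor in all LL2 WT samples and at 5.90, 6.998 and 5.87 CPM in the clone, that is, at least 62.6-fold higher (adjusted p = 1.53e-06). Of 37 cytochromes P450 and conjugating enzymes, 8 rose and 2 fell (median 0.51, 0.30 to 0.66). *Cyp1a1*, the P450 that the aryl hydrocarbon receptor induces, was at or under the floor in LL2 WT and at 5.59, 6.38 and 7.46 CPM in the clone, at least 64.8-fold higher (adjusted p = 9.73e-09).

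NADPH, which these reductases and glutathione reductase consume, is made mainly by the pentose phosphate pathway. Of 18 tested genes of this pathway and of other NADPH supply 4 rose and 0 fell (2 without *KEAP1* KO #3 replicate 3, and 1 without LL2 WT replicate 2 or *KEAP1* KO #1 replicate 1), with a median of 0.01 (−0.094 to 0.062). Quantile normalization gave a median of −0.051, with 3 higher and 1 lower. *G6pdx*, the entry enzyme of the pathway, lay at 84.2, 81.8 and 61.9 CPM in LL2 WT against 176, 176 and 223 CPM in *KEAP1* KO #3 (log2 fold change 1.34, standard error 0.13, adjusted p = 9.84e-06). *Taldo1*, its transaldolase, and *Me1*, the cytosolic malic enzyme, changed by 1.53 and 1.65 (adjusted p = 9.67e-06 and 1.89e-07), and all samples of the clone lay above LL2 WT. *Pgd*, its second dehydrogenase, changed by 1.09 and lost its call without LL2 WT replicate 3 (0.83, under the fold threshold). The count of genes that fell was 2 without *KEAP1* KO #3 replicate 3, and 1 without *KEAP1* KO #1 replicate 1 or LL2 WT replicate 2.

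Heme and iron genes and ABC transporters also rose more often than they fell. Of 22 heme and iron genes 6 rose (*Blvrb*, *Slc48a1*, *Abcb6*, *Steap3*, *Flvcr1* and *Pir*) and 1 fell (*Hebp1*), with a median of 0.78 (0.48 to 0.80). *Blvrb*, the gene of biliverdin reductase B, lay at 23.9, 15.2 and 38.1 CPM in LL2 WT against 214, 217 and 243 CPM in *KEAP1* KO #3 (log2 fold change 3.22, standard error 0.31, adjusted p = 7.29e-06). Of 30 ABC transporters, pumps that export drugs, lipids and glutathione conjugates, 11 rose and 1 fell (36.7% and 3.33%, median 0.54, 0.27 to 0.69). With 1 library left out the rise count lay between 8 and 11, and the count of falls was 2 without *KEAP1* KO #3 replicate 3 or LL2 WT replicate 1. *Abcb4*, a phospholipid exporter known from bile, lay at 0.329, 0.281 and 0.209 CPM in LL2 WT against 3.56, 3.21 and 4.57 CPM in *KEAP1* KO #3 (log2 fold change 3.38, standard error 0.23, adjusted p = 3.92e-07). *Abcc2*, which exports glutathione and glucuronide conjugates, was at or under the floor in LL2 WT and at 1.11, 2.65 and 0.562 CPM in the clone, at least 14.4-fold higher on the means (adjusted p = 0.000877). Its level varied more between the samples of the clone than that of *Abcb4*.

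**Figure D2:**
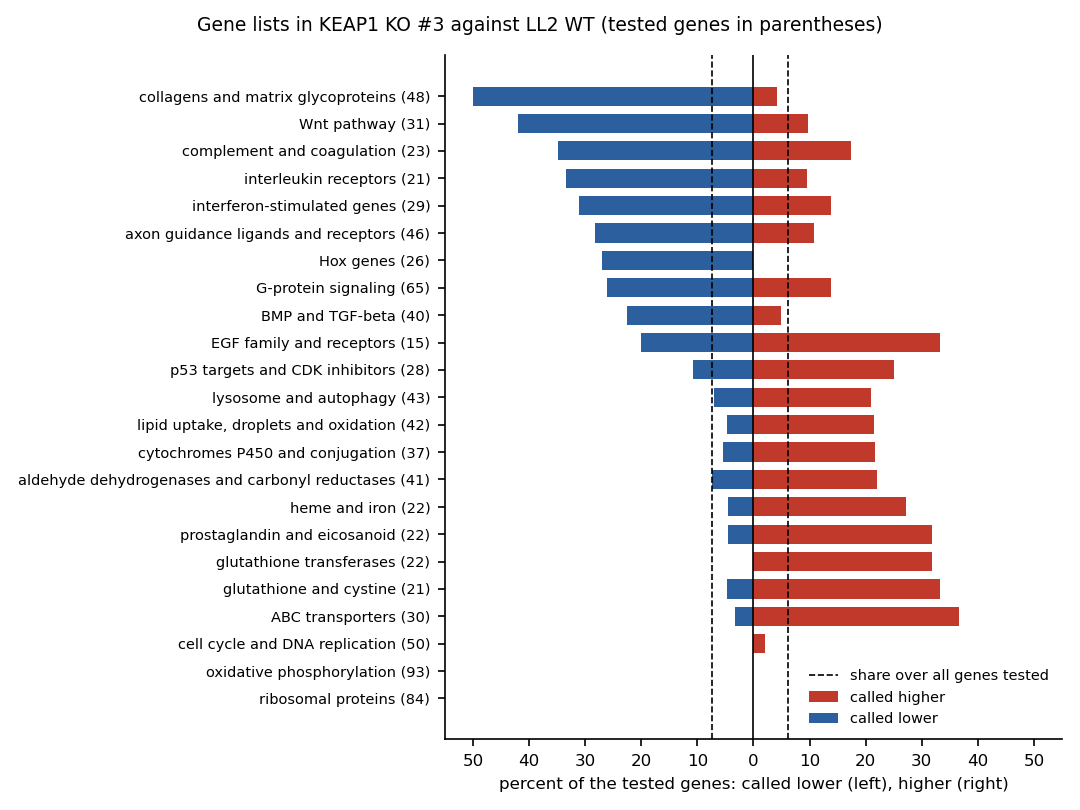
Share of the tested genes of 23 gene lists that were called higher (red, right) and called lower (blue, left) in *KEAP1* KO #3 against LL2 WT, in percent of the tested genes of each list. Dashed lines mark the shares over all genes, 6.09% and 7.34%. Matrix genes (50% lower) and ABC transporters (36.7% higher) stand at the ends, and no gene of oxidative phosphorylation or of the ribosome was called.

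Among the 10 largest rises were also genes of a growth factor, an adhesion receptor and a cytokine. *Prl2c2*, a placental growth factor of the prolactin family known as proliferin, lay at 1.04, 6.76 and 0.502 CPM in LL2 WT against 1444, 1380.5 and 698 CPM in *KEAP1* KO #3. Both groups were scattered, yet no sample overlapped (log2 fold change 9.38, standard error 0.90, adjusted p = 7.36e-06), and 89.8% of its 31-base stretches occur in other genes. *Selp*, the adhesion receptor P-selectin, lay at 0.272, 0.220 and 0.0949 CPM in LL2 WT against 78.9, 86.2 and 89.4 CPM in *KEAP1* KO #3 (log2 fold change 8.22, standard error 0.37, adjusted p = 7.70e-09). *Il36g*, an IL-1 family cytokine of epithelia, went from 0.297, 0.352 and 0.468 CPM to 97.6, 98.3 and 88.7 CPM (log2 fold change 7.67, standard error 0.22, adjusted p = 1.26e-10). The samples of *Il36g* lay close together within each line. The leukocyte and macrophage markers summed to between 3.03 and 5.30 CPM in LL2 WT and to between 14.4 and 37.4 CPM in *KEAP1* KO #3, mostly from *Cd68* (1 of 3 tested higher, 1 lower), with *Ptprc* and *Adgre1* at or under the floor in both lines. The endothelial markers summed to between 2.48 and 3.70 CPM and to between 5.35 and 6.09 CPM (1 of 2 tested higher), with *Kdr* and *Tek* at or under the floor. The part of these markers in the rises of *Selp* and of the cytokines was not tested.

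Interleukins moved in both directions, with 5 of 19 higher and 4 lower (median 0.23, 0.0086 to 0.35). *Il7*, a growth factor of lymphocytes, was at or under the floor in LL2 WT and at 15.3, 13.8 and 11.8 CPM in the clone, at least 136-fold higher (adjusted p = 1.15e-09). *Il1rn*, the antagonist of the IL-1 receptor, was at or under the floor in LL2 WT and at 3.98, 2.72 and 1.38 CPM in the clone, at least 26.9-fold higher (adjusted p = 4.15e-05). *Il33*, an alarmin of the same family, went the other way, from 14.3, 3.01 and 45.3 CPM to 0.769, 0.238 and 0.906 CPM (log2 fold change −4.25, standard error 1.07, adjusted p = 0.00918), and its LL2 WT samples were widely spread. Interleukin receptors fell more often than they rose, with 7 of 21 lower and 2 higher (median −0.65), among them *Osmr*, the oncostatin M receptor (−3.58, adjusted p = 0.000447), and *Il11ra1*, the interleukin 11 receptor (−3.25, adjusted p = 9.73e-05). Of 14 chemokines 3 rose and 1 fell, *Cx3cl1*. The rises were *Ccl20*, which draws cells bearing CCR6 (4.05, adjusted p = 0.000106), *Cxcl1* and *Cxcl5*. *Cxcl1*, *Cxcl5* and *Cx3cl1* were called in neither other clone. *Cxcl1* lost its call without *KEAP1* KO #3 replicate 3 (2.00, adjusted p = 0.0561) or LL2 WT replicate 1 or 2 (2.22 and 1.93, adjusted p = 0.0567 and 0.0558). *Cx3cl1* lost its call without LL2 WT replicate 3 (−1.44, adjusted p = 0.051) and without *KEAP1* KO #3 replicate 1 (−1.58, adjusted p = 0.0526).

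Interferon-stimulated genes, of which 9 of 29 fell and 4 rose, had a median of −0.69 (−0.73 to −0.42). *Ifit2*, which binds viral RNA, lay at 12.5, 13.5 and 12.16 CPM in LL2 WT against 1.08, 1.27 and 2.01 CPM in *KEAP1* KO #3, and *Ifi27* at 20.7, 15.2 and 28.6 CPM in LL2 WT against 1.13, 0.776 and 2.97 CPM in *KEAP1* KO #3. Neither gene overlapped between the lines (log2 fold changes −3.09 and −3.81, adjusted p = 2.44e-06 and 0.000225). *Rsad2*, the antiviral enzyme viperin, rose from at or under the floor to 0.610, 0.292 and 0.857 CPM (2.42, adjusted p = 0.000349). Complement and coagulation genes split as well, with 8 of 23 lower and 4 higher (median −0.27, −0.34 to −0.084). *C3*, the central complement component, lay at 0.347, 0.0704 and 0.358 CPM in LL2 WT against 5.50, 6.71 and 10.7 CPM in *KEAP1* KO #3 (log2 fold change 4.51, standard error 0.52, adjusted p = 3.08e-05), while *Clu*, clusterin, an inhibitor of the terminal complement complex, lay at 297, 209 and 437 CPM in LL2 WT against 18.8, 22.8 and 35.6 CPM in *KEAP1* KO #3 (log2 fold change −3.59, standard error 0.42, adjusted p = 3.86e-05). *Vcam1*, an adhesion receptor for lymphocytes and a target of NF-kB, fell from 118, 98.0 and 154 CPM to 6.09, 5.95 and 12.96 CPM (−3.94, adjusted p = 4.15e-06).

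Of 22 tested genes of prostaglandins and other eicosanoids 7 rose and 1 fell (*Alox5ap*), with a median of 0.64 (0.41 to 0.72). The list holds enzymes that release arachidonic acid and turn it into prostaglandins, and other genes beside them. The rises were *Ptgs2*, the inducible cyclooxygenase, the phospholipases *Pla2g2d*, *Pla2g2e*, *Pla2g4a* and *Pla2g5*, the lipoxygenase *Aloxe3* and the receptor gene *Ptgir*. *Ptgir*, the prostacyclin receptor, was at or under the floor in LL2 WT and at 1.09, 0.958 and 3.77 CPM in the clone, at least 19.4-fold higher on the means (adjusted p = 0.000572), with 1 sample well above the other 2. The secreted phospholipases *Pla2g2d* and *Pla2g5* were at or under the floor in LL2 WT and at 2.29, 3.24 and 3.66 CPM and 1.46, 2.50 and 1.88 CPM in the clone, at least 30.6-fold and 19.5-fold higher. *Pla2g2e*, a secreted phospholipase that lies near both on chromosome 4, was listed at 0 in LL2 WT and at 0.754, 0.419 and 2.05 CPM in the clone (adjusted p = 0.00124). Of the matrix proteases and their inhibitors, 7 of 40 rose and 7 fell (median 0.02, −0.033 to 0.19), among them *Mmp10*, the protease stromelysin-2, at 1.37, 1.53 and 2.65 CPM in LL2 WT against 23.4, 28.1 and 21.9 CPM in *KEAP1* KO #3 (log2 fold change 3.70, standard error 0.38, adjusted p = 1.14e-05).

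The windows of *Il1rn* (chr2:24336610-24336859, the first of 3 start sites), *Pla2g2e* (chr4:138877692-138877941) and *Mmp10* (chr9:7502092-7502341) are shown because they hold TGACTCA, the site known for AP-1, which resembles the antioxidant response element. They are RefSeq windows of GRCm38.p6 on the plus strand, capitals mark the match on either strand, and it begins 141, 87 and 63 bases upstream of the start, on the minus, plus and minus strand.
Il1rn: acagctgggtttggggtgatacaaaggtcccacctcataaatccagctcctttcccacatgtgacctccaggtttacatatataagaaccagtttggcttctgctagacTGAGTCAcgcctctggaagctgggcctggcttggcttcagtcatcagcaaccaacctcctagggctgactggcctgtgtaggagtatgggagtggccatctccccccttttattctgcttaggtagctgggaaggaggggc
Pla2g2e: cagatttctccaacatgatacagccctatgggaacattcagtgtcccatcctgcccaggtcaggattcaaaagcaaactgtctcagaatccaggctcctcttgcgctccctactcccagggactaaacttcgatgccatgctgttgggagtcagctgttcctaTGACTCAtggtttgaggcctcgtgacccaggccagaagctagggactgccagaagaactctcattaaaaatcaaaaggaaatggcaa
Mmp10: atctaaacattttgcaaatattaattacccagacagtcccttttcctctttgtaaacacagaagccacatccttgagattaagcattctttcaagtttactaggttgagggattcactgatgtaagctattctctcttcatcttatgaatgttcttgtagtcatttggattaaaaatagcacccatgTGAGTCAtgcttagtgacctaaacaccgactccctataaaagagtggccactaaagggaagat
TGACTCA stood in 4.46% of the 32851 windows. It was present for 4.41% of tested genes with a window, for 10.9% of those called higher and for 3.40% of those called lower. In 128 windows it overlapped a match to TGACNNNGC, whose letters it can share. These shares describe letters only, and no test was run on them.

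Of all lists examined, the extracellular matrix held the largest share of falls. Of 48 collagens and matrix glycoproteins, 24 fell (50% against 7.34% of all genes) and 2 rose (4.17%), and the median was −1.27. With 1 library left out, between 21 and 25 fell, and the count of rises was 5 without LL2 WT replicate 3 and 1 without either *KEAP1* KO #3 replicate 3 or LL2 WT replicate 1. *Col3a1*, the chain of the fibrillar collagen III, lay at 436, 309.7 and 563 CPM in LL2 WT against 0.150, 0.129 and 0.695 CPM in *KEAP1* KO #3. It went from a high level to below 1 CPM in every sample (log2 fold change −10.21, standard error 0.55, adjusted p = 3.57e-08). The 3 chains of collagen VI, a microfibril around cells, fell together. *Col6a1* lay at 38.9, 24.01 and 61.7 CPM in LL2 WT against 0.396, 0.368 and 1.21 CPM in *KEAP1* KO #3, *Col6a2* changed by −5.87 and *Col6a3* was at 0.158, 0.0603 and 0.0293 CPM in the clone after 8.49, 7.69 and 10.8 CPM in LL2 WT (adjusted p = 3.55e-05, 3.71e-06 and 0.000284).

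Glycoproteins of the matrix fell with the collagens. *Fn1* and *Fbn1* were chosen after their values were seen. *Fn1*, fibronectin, lay at 223, 119 and 367 CPM in LL2 WT against 11.6, 12.6 and 44.5 CPM in *KEAP1* KO #3 (log2 fold change −3.51, standard error 0.56, adjusted p = 0.000447). *Fbn1*, fibrillin-1 of elastic microfibrils, lay at 20.5, 15.3 and 21.4 CPM in LL2 WT against 0.353, 0.440 and 0.309 CPM in *KEAP1* KO #3 (log2 fold change −5.35, standard error 0.23, adjusted p = 5.26e-09). Neither gene overlapped between the lines, although *Fn1* was the more scattered of the pair within each line. *Tnc*, *Sparc*, *Thbs1*, *Thbs2*, *Bgn*, *Ogn* and the fibulins *Fbln1* and *Fbln5* were also called lower. The exceptions were *Tnxb* and *Ccn5*, which rose, and *Ccn5* lost its call without LL2 WT replicate 1 (1.503) or *KEAP1* KO #3 replicate 3 (1.39). Of the fibroblast markers, 3 of 5 tested were called lower (*Pdgfra*, *Pdgfrb* and *Col1a1*). *Col1a1* lost its call without *KEAP1* KO #3 replicate 2 (−1.81), LL2 WT replicate 1 or 3 (−1.89 and −1.46) or replicate 3 of every line (−1.47). *Dcn* and *Thy1* were not called, and their samples overlapped between the lines. The fibroblast markers summed to 8.55 to 21.1 CPM in LL2 WT and 3.21 to 5.72 CPM in *KEAP1* KO #3, mostly from *Pdgfra*. *Pdgfrb*, *Col1a1* and *Lum* were at or under the floor in the clone, as was *Lum* in LL2 WT. Of 6 mesenchymal markers, 3 were lower (*Vim*, *Fn1* and *Twist1*) and 0 were called higher. The sum of all 6 went from between 6170 and 6981 CPM to between 4621 and 5343 CPM in the clone. *S100a4* and *Cdh2* went the other way in every sample of the clone, without a call. *S100a4* went from 2089, 2526 and 1074 CPM to 3059, 2967 and 3214 CPM. *Cdh2* went from 6.99, 6.15 and 7.04 CPM to 10.98, 11.8 and 12.4 CPM. The samples of *Zeb1* overlapped between the lines. The part of the fibroblast and mesenchymal markers in the fall of the matrix genes was not tested.

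**Figure D3:**
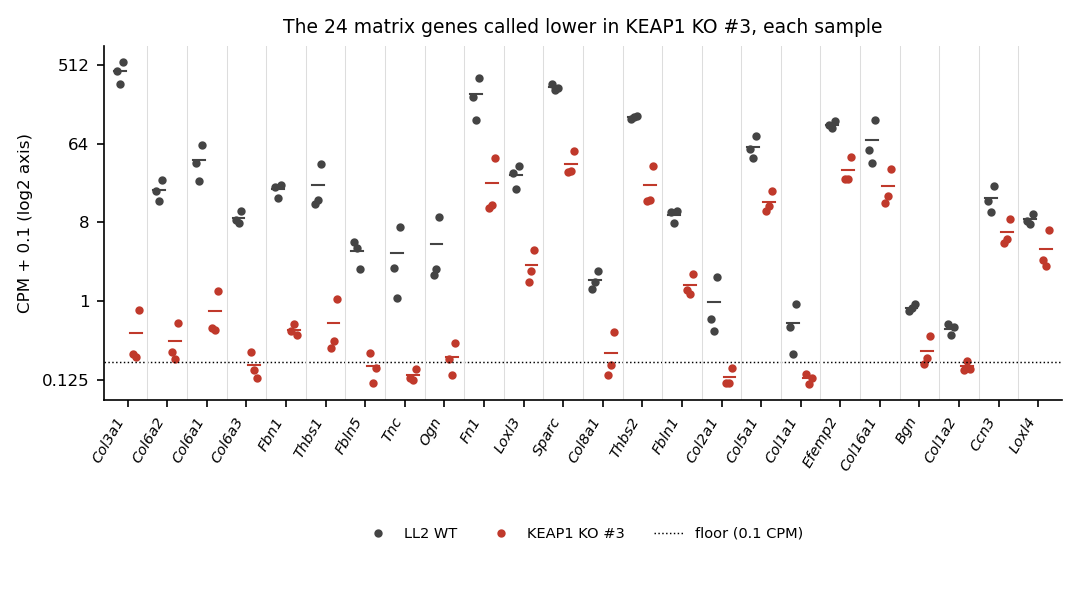
Levels of the 24 collagen and matrix glycoprotein genes called lower in *KEAP1* KO #3 (red) against LL2 WT (grey), ordered by the size of the fall. Each point is 1 sample, bars are means of 3 samples, the y axis is CPM + 0.1 on a log2 axis and the dotted line marks the floor of 0.1 CPM. *Col3a1* lies below 1 CPM in all samples of *KEAP1* KO #3, and the samples of the 2 lines overlap for none of the 24 genes.

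Signals that pattern tissues fell more often than they rose. Of 31 Wnt pathway genes 13 fell (41.9%) and 3 rose (9.68%), with a median of −0.56. *Dkk2*, a secreted Wnt antagonist, lay at 78.8, 55.6 and 140.3 CPM in LL2 WT against 0.252, 0.458 and 1.27 CPM in *KEAP1* KO #3 (log2 fold change −7.04, standard error 0.52, adjusted p = 7.04e-07). *Wnt5a*, a ligand of the branch that does not act through beta-catenin, was at 3.65, 2.69 and 8.43 CPM in LL2 WT and at or under the floor in the clone, at least 49.2-fold lower (adjusted p = 2.36e-05). *Wnt7b*, a ligand of the beta-catenin branch, lay at 47.1, 40.1 and 41.7 CPM in LL2 WT against 5.47, 6.41 and 9.10 CPM in *KEAP1* KO #3. Ligand and antagonist alike were thus lower in all samples of the clone, with −2.63 for *Wnt7b* (adjusted p = 2.00e-05). Axon guidance genes fell in 13 of 46 and rose in 5 (median −0.17, −0.28 to −0.081). *Ntn1*, the guidance cue netrin-1, went from 26.0, 19.8 and 29.5 CPM to 0.907, 1.05 and 1.66 CPM (log2 fold change −4.30, standard error 0.37, adjusted p = 2.91e-06). Among the semaphorins, *Sema3f* changed by −4.89 (adjusted p = 6.49e-06) and *Sema3c* by 5.01 (adjusted p = 4.08e-09), in opposite directions. Of 40 BMP and TGF-beta genes 9 fell and 2 rose (median −0.25, −0.36 to −0.015).

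G-protein signaling genes fell in 17 of 65 and rose in 9 (median −0.36, −0.52 to −0.22). *Pde4b*, which breaks down cyclic AMP, was at 11.3, 6.13 and 11.1 CPM in LL2 WT and at 0.0163, 0.0128 and 0.114 CPM in the clone (log2 fold change −6.04, standard error 0.43, adjusted p = 5.21e-07). *Adcyap1r1*, the receptor of the peptide PACAP that raises cyclic AMP, was at 8.01, 7.62 and 7.80 CPM in LL2 WT and at or under the floor in the clone, at least 78.1-fold lower (adjusted p = 1.26e-08). *Adgra2*, a co-receptor of Wnt7 ligands also known as GPR124, lay at 64.1, 41.2 and 92.8 CPM in LL2 WT against 1.72, 2.54 and 5.55 CPM in *KEAP1* KO #3 (log2 fold change −4.38, standard error 0.52, adjusted p = 4.14e-05). All samples of the clone lay below all samples of LL2 WT for these genes, as they did for *Gas1*, a membrane protein that binds Hedgehog (−6.05, adjusted p = 2.13e-07), and for *Tmem119* and *Rab3il1*, at least 89.1-fold and 65.0-fold lower. *Gm5537*, also among the 10 largest falls, rested on LL2 WT replicate 3 (1.76, 2.45 and 126 CPM in LL2 WT, near 0 in the clone) and lost its call without that sample (−4.44, adjusted p = 0.0798) or without *KEAP1* KO #3 replicate 1 or 2 (−6.40, adjusted p = 0.0503 and 0.0506). Every 31-base stretch of it occurs in other genes.

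In the EGF family, 5 of 15 tested genes rose and 3 fell (median 0.26, −0.23 to 0.73), and the ligands and the receptor moved apart. The ligands *Areg*, *Ereg*, *Tgfa*, *Hbegf* and *Btc* made up the rises. *Tgfa* lay at 0.829, 0.767 and 1.21 CPM in LL2 WT against 2.99, 2.82 and 3.02 CPM in *KEAP1* KO #3 (log2 fold change 1.58, standard error 0.29, adjusted p = 0.00130). *Egfr*, their receptor, lay at 3.69, 4.996 and 6.16 CPM in LL2 WT against 0.299, 0.285 and 0.916 CPM in *KEAP1* KO #3 (log2 fold change −3.200, standard error 0.39, adjusted p = 4.66e-05). Every sample of the clone was above LL2 WT for *Tgfa* and below it for the receptor. The call of *Btc* was lost without any 1 library of *KEAP1* KO #3 or without LL2 WT replicate 1 or 2 (1.08 to 1.66), and without *KEAP1* KO #1 replicate 1 or *KEAP1* KO #2 replicate 1 or 2 (adjusted p = 0.0509 to 0.0539). Of 36 genes that report or dampen ERK signaling 7 fell and 5 rose (3 without LL2 WT replicate 1), with a median of −0.33 (−0.38 to −0.096). *Spry1*, a feedback inhibitor, was at 4.66, 3.04 and 9.11 CPM in LL2 WT and at or under the floor in the clone, at least 56.0-fold lower (adjusted p = 1.05e-05), while the phosphatase *Dusp4* lay at 31.4, 34.0 and 37.3 CPM in LL2 WT against 133, 144 and 169.8 CPM in *KEAP1* KO #3 (log2 fold change 2.11, standard error 0.17, adjusted p = 1.28e-06). *Fgf10*, a growth factor of lung branching, changed by −5.02 (adjusted p = 3.16e-07).

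Genes of cell identity and stress showed smaller groups of changes. *Snai2*, a transcription factor of epithelial-mesenchymal transition, lay at 37.8, 33.4 and 42.6 CPM in LL2 WT against 3.73, 3.40 and 4.78 CPM in *KEAP1* KO #3 (log2 fold change −3.23, standard error 0.23, adjusted p = 5.50e-07), and 5 of 19 genes of that list fell while 2 rose (1 without LL2 WT replicate 3 or *KEAP1* KO #3 replicate 1 or 2). Of 26 Hox genes, which record position along the body axis, 7 fell (26.9%) and 0 rose (median −0.52), and 11 fell without *KEAP1* KO #3 replicate 3. Targets of p53 and CDK inhibitors rose in 7 of 28 and fell in 3 (median 0.59). *Trp53inp1*, a p53 target, lay at 5.78, 9.83 and 17.2 CPM in LL2 WT against 38.9, 39.1 and 70.7 CPM in *KEAP1* KO #3 (log2 fold change 2.25, standard error 0.41, adjusted p = 0.00106). Lipid uptake and oxidation genes rose in 9 of 42 and fell in 2 (median 0.12, 0.089 to 0.23), with *Lpl*, lipoprotein lipase, at 4.01, 4.15 and 5.45 CPM in LL2 WT against 19.99, 20.3 and 25.6 CPM in *KEAP1* KO #3 (log2 fold change 2.25, standard error 0.23, adjusted p = 1.20e-05). The count of falls in that list was 1 without *KEAP1* KO #3 replicate 1 or 2 or LL2 WT replicate 1 or 3. *Fads2*, a desaturase for polyunsaturated fatty acids, fell from 34.2, 35.4 and 32.6 CPM to 1.78, 1.69 and 2.68 CPM (−4.02, adjusted p = 2.22e-07).

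Several large systems held few or no calls. Of 93 oxidative phosphorylation genes and 84 ribosomal protein genes none was called (medians 0.07, −0.11 to 0.16, and −0.39, −0.49 to −0.32). In limma's test 31 and 64 of them reached an unadjusted p under 0.05. An adjusted p under 0.05 was reached by 17 and 55, which missed a call on the fold threshold only. For oxidative phosphorylation 1 gene rose without *KEAP1* KO #3 replicate 3 or LL2 WT replicate 2 and 1 fell without *KEAP1* KO #3 replicate 3. Of 50 cell cycle and replication genes 1 was called (*E2f2*, lost without LL2 WT replicate 3, where it was 0.96), and 4 rose without LL2 WT replicate 2. Of 36 glycolysis and hypoxia genes 2 fell (5.56%, near the 7.34% of all genes) and 0 rose (against 6.09%), but 8 fell without *KEAP1* KO #3 replicate 3 and 7 without LL2 WT replicate 2. With each remaining library of these lines left out in turn 1 fell. Quantile normalization turned the sign of the list medians of oxidative phosphorylation (−0.04) and of the cell cycle (−0.02), which with libraries left out ranged from −0.15 to 0.21.

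Most of the 1967 called genes were shared with another clone, in comparisons that use the same 3 LL2 WT samples. In the same direction, 805 genes (40.9%) were called in all 3 clones (419 higher, 386 lower), 730 (37.1%) with *KEAP1* KO #2 but not *KEAP1* KO #1 (281 higher, 449 lower) and 89 (4.52%) with *KEAP1* KO #1 but not *KEAP1* KO #2 (49 higher, 40 lower). The remaining 343 (17.4%) were called in *KEAP1* KO #3 and in neither other clone (143 higher, 200 lower). This count was 553 without *KEAP1* KO #3 replicate 3, and 228 where genes had to average 1 CPM or more. A missing call is not a shown difference. The 143 genes higher had medians of 1.24 here, 0.91 in *KEAP1* KO #2 and 0.64 in *KEAP1* KO #1, and the 200 genes lower −1.39, −0.83 and −0.55. When the clones were set against each other, 257 of the 343 were called in neither difference, 79 differed from *KEAP1* KO #1 and 22 from *KEAP1* KO #2. Over all genes, 679 (4.63%) were called between *KEAP1* KO #3 and *KEAP1* KO #1, 298 higher (2.03%) and 381 lower (2.6%), and 71 (0.485%) between *KEAP1* KO #3 and *KEAP1* KO #2.

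**Figure D4:**
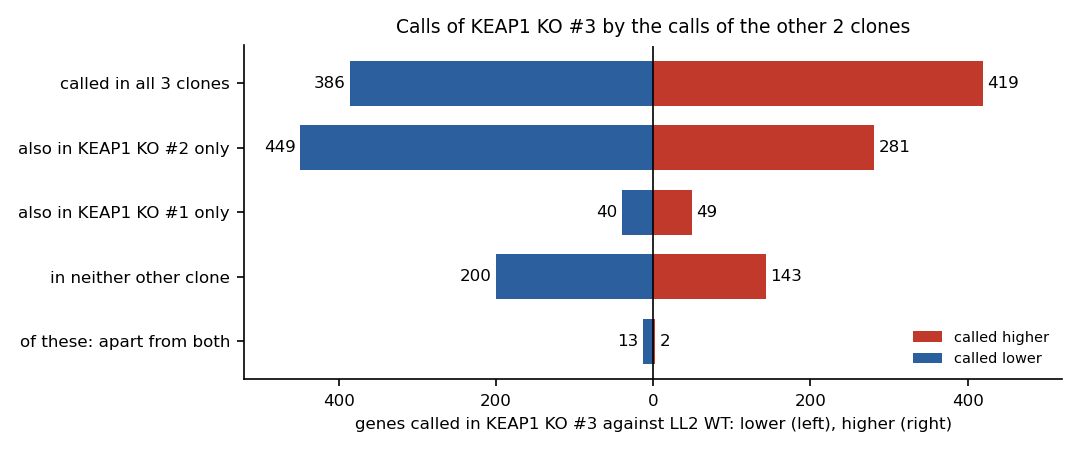
Number of genes called in *KEAP1* KO #3 against LL2 WT, split by whether the same direction was called in the other *KEAP1* KO clones. Red bars count genes called higher and blue bars genes called lower, and the group called in neither other clone holds 143 and 200 genes.

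Functions of the genes called in neither other clone spread over several of the lists above. *Cxcl1*, *Cxcl5* and *Cx3cl1* were among them, and none of these chemokines was called in both differences between the clones. The genes called in neither other clone that are given here with levels, apart from *Abcb1a*, were chosen after their values were seen. Among ABC transporters they were *Abcb1a*, *Abcc1*, *Abcc3* and *Abcc5*. The calls of the last 3 were lost without *KEAP1* KO #3 replicate 3 (0.92, 1.76 and 0.66), those of *Abcc1* and *Abcc3* without LL2 WT replicate 2 (0.88 and 1.41), that of *Abcc3* without *KEAP1* KO #3 replicate 2 (1.92) and that of *Abcc5* without LL2 WT replicate 1 (0.93). *Abcc1*, which exports glutathione conjugates, lay at 30.4, 22.1 and 37.5 CPM in LL2 WT against 54.3, 56.9 and 77.4 CPM in *KEAP1* KO #3, at 31.7, 30.01 and 43.4 CPM in *KEAP1* KO #1 and at 38.9, 37.5 and 54.6 CPM in *KEAP1* KO #2. Its log2 fold change of 1.08 in *KEAP1* KO #3 compares with 0.24 and 0.55 in the other clones, and neither difference between the clones was called. *Slc48a1*, which moves heme out of the lysosome, stood at 144, 151 and 154 CPM in *KEAP1* KO #3 against 67.2, 60.9 and 78.6 CPM in LL2 WT (1.13 against 0.12 and 0.62). *Gsto1*, an omega-class transferase, was alike in this respect (1.25 against 0.58 and 0.95). *Cdkn1a*, the CDK inhibitor p21, lay at 140.3, 156 and 237 CPM in LL2 WT against 363, 379.5 and 458 CPM in *KEAP1* KO #3, with log2 fold changes of 1.199 in this clone, 0.05 in *KEAP1* KO #1 and 0.96 in *KEAP1* KO #2. Of the Hox genes, *Hoxd8*, *Hoxd9* and *Hoxd11* fell in *KEAP1* KO #3 and were called in neither other clone. *Hoxd8* lay at 28.0, 23.3 and 24.6 CPM in LL2 WT against 8.22, 7.68 and 14.04 CPM in *KEAP1* KO #3 (−1.38 against −0.76 and −0.87), and *Hoxd11* lost its call without *KEAP1* KO #3 replicate 1 (−1.40) or 2 (−1.45) or LL2 WT replicate 3 (−1.19).

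Only 15 genes met the stricter rule of being called in *KEAP1* KO #3, called the same way against both other clones and not called that way in either. They are 2 that rose (0.0137% of genes tested) and 13 that fell (0.0887%), and without 1 library the total lay between 12 and 22. Without replicate 3 of every line, an alternative added after seeing the data, 1 of the 2 rises was left. Of the 15, *Gm7984*, *Tgif2-ps2*, *Gm14139*, *Galm*, *Pcdhac2*, *Chst2* and *Elovl4* lay under the 5 CPM required for naming and were chosen after their values were seen. Positions below are RefSeq gene bounds on GRCm38.p6.

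The genes that rose were a cadherin and a drug pump. *Cdh13* (chr8:118140017-119324929), T-cadherin, an adhesion receptor anchored to the membrane by lipid, lay at 2.04, 1.26 and 2.53 CPM in LL2 WT against 5.32, 4.89 and 7.71 CPM in *KEAP1* KO #3. It was at 0.546, 0.210 and 0.532 CPM in *KEAP1* KO #1 and at 0.0782, 0 and 0.0507 CPM in *KEAP1* KO #2. It thus rose in *KEAP1* KO #3 (log2 fold change 1.59, standard error 0.39, adjusted p = 0.00754) and fell in both other clones (−1.97 and −3.83), and *KEAP1* KO #3 differed from them by 3.57 (adjusted p = 0.000116) and 5.42 (adjusted p = 6.59e-06). *Abcb1a* (chr5:8567091-8748575), a P-glycoprotein gene whose product pumps out many drugs, lay at 1.34, 1.71 and 1.70 CPM in LL2 WT against 5.85, 6.10 and 5.60 CPM in *KEAP1* KO #3. It was at 2.198, 2.53 and 2.85 CPM in *KEAP1* KO #1 and at 1.92, 2.65 and 2.46 CPM in *KEAP1* KO #2. No sample of the other lines reached those of *KEAP1* KO #3, and the differences between the clones were 1.19 (adjusted p = 0.00202) and 1.29 (adjusted p = 0.00601). The second was lost without replicate 3 of every line (1.37, adjusted p = 0.0529), and 28.2% of the stretches of *Abcb1a* occur in other genes.

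Among the 13 genes that fell, several were at or near 0 in *KEAP1* KO #3 but in neither LL2 WT nor the other *KEAP1* KO clones. *Pcna-ps2* (chr19:9283238-9284495), a processed pseudogene of the replication clamp gene, lay at 0.273, 0.272 and 1.39 CPM in *KEAP1* KO #3 and at 41.0, 54.1 and 21.8 CPM in LL2 WT (log2 fold change −5.95, standard error 0.46, adjusted p = 1.01e-06). It lay at 52.0, 50.7 and 46.5 CPM in *KEAP1* KO #1 and, in *KEAP1* KO #2, 71.2, 66.7 and 46.5 CPM. *Galm* (chr17:80127458-80185032), galactose mutarotase, which feeds galactose into its breakdown, was at 1.83, 1.37 and 1.19 CPM in LL2 WT and at or under the floor in *KEAP1* KO #3, at least 14.6-fold lower, with 2.33, 2.095 and 2.07 CPM and 2.16, 1.96 and 1.83 CPM in the other clones. *Gm7984* and *Tgif2-ps2* were listed at 0 in all 3 samples of *KEAP1* KO #3, against 4.52, 5.32 and 3.18 CPM and 2.40, 3.13 and 2.42 CPM in LL2 WT. *Gm14139* was at 0, 0.116 and 0.0609 CPM against 1.86, 3.40 and 1.72 CPM. In *Pcna-ps2*, *Tgif2-ps2*, *Gm7984* and *Gm14139* between 62.7% and 81.3% of the stretches occur in other genes, and their levels are uncertain to that extent. *Pcdhac2*, a clustered protocadherin of neurons with 48.4% shared stretches, was also at 0 in *KEAP1* KO #3, with 0.628, 0.268 and 0.858 CPM in LL2 WT and 1.71 to 2.94 CPM in the other *KEAP1* KO clones, where it rose. In the *NRF2* KO clone *Pcdhac2* was near 0 too, at 0.0238, 0 and 0.0343 CPM (log2 fold change −2.42 against LL2 WT, adjusted p = 0.00572). Its fall was thus not particular to *KEAP1* KO #3.

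The rest of these genes fell part of the way. *Jam3* (chr9:27097384-27155421), a junction adhesion molecule with 32.2% shared stretches, lay at 5.05, 5.88 and 4.83 CPM in LL2 WT against 1.86, 1.896 and 1.28 CPM in *KEAP1* KO #3 (log2 fold change −1.61, standard error 0.17, adjusted p = 1.62e-05), and its levels in *KEAP1* KO #1 (5.44, 5.23 and 4.75 CPM) and *KEAP1* KO #2 (4.93, 4.86 and 4.06 CPM) overlapped LL2 WT. *Ica1* (chr6:8630527-8778540), an islet cell autoantigen that takes part in secretory vesicle formation, lay at 6.98, 6.76 and 7.93 CPM in LL2 WT against 2.18, 2.53 and 3.75 CPM in *KEAP1* KO #3 (log2 fold change −1.36, standard error 0.19, adjusted p = 0.000190), and at 7.91, 8.58 and 8.76 CPM and 5.53, 6.86 and 7.74 CPM in the other clones. *Chst2* (chr9:95400926-95407270), a sulfotransferase for glycans bound by selectins, lay at 3.41, 4.12 and 3.18 CPM in LL2 WT against 0.691, 0.731 and 0.796 CPM in *KEAP1* KO #3 (log2 fold change −2.12, standard error 0.16, adjusted p = 8.77e-07), and *KEAP1* KO #3 differed from *KEAP1* KO #1 by −2.34 (adjusted p = 2.93e-06) and from *KEAP1* KO #2 by −1.12 (adjusted p = 0.00369). *Elovl4*, which elongates very long fatty acids, fell in *KEAP1* KO #3 (−1.76, adjusted p = 0.00158) and rose in *KEAP1* KO #1 (1.91, adjusted p = 0.00151). *Prdm6*, a chromatin regulator of smooth muscle, fell from 2.19, 2.76 and 3.18 CPM to 0.287, 0.337 and 0.149 CPM and stood at 4.14, 7.15 and 5.87 CPM in *KEAP1* KO #1. In *KEAP1* KO #2 *Prdm6* was at 1.38, 1.53 and 1.16 CPM (−0.94, adjusted p = 0.0150), and *Chst2* changed there by −0.999 (adjusted p = 0.000447). Both were thus lower in *KEAP1* KO #2 as well, by just under the fold threshold. *Gm14418* changed by −1.65, and 68.8% of its stretches occur in other genes.

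*Col5a1* (chr2:27886381-28039510), a chain of the collagen V that starts fibrils, was the only matrix gene of the 15. It lay at 55.4, 44.0 and 78.4 CPM in LL2 WT against 10.7, 12.303 and 18.2 CPM in *KEAP1* KO #3 (log2 fold change −2.098, standard error 0.28, adjusted p = 0.000103), at 37.7, 31.5 and 45.1 CPM in *KEAP1* KO #1 and at 31.03, 28.9 and 43.6 CPM in *KEAP1* KO #2. All samples of *KEAP1* KO #3 lay below those of the other lines shown. The difference to *KEAP1* KO #1 was −1.49 (adjusted p = 0.00431) and that to *KEAP1* KO #2 −1.34 (adjusted p = 0.0475). The second lost its call without any 1 library of *KEAP1* KO #1 (adjusted p = 0.062 to 0.0714) or *KEAP1* KO #2 (0.109 to 0.181), without *KEAP1* KO #3 replicate 1 or 2 (0.227 and 0.197) and without LL2 WT replicate 1 (0.0808), with log2 differences of −1.16 to −1.45.

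**Figure D5:**
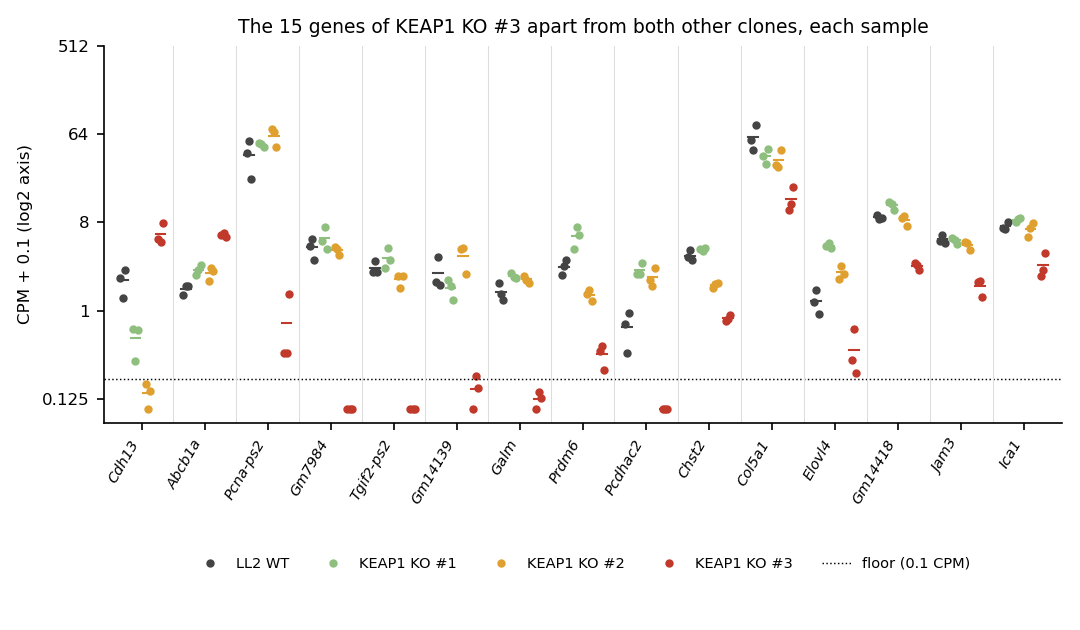
Levels of the 15 genes that set *KEAP1* KO #3 apart from both other *KEAP1* KO clones, in every sample of LL2 WT and the 3 clones. Each point is 1 sample, bars are means of 3 samples, the y axis is CPM + 0.1 on a log2 axis and the dotted line marks the floor of 0.1 CPM. *Cdh13* and *Abcb1a* are highest in *KEAP1* KO #3, and the other 13 genes are lowest in it.

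A further 13 genes were called in both differences and also called in at least 1 other clone, and changed more in *KEAP1* KO #3 (7 higher, 6 lower). For 9 of the 13 a difference to another clone lost its call when libraries were left out, and for 4 (*Gsta1*, *Il36g*, *Tfec* and *Galnt12*) both calls held in these settings. The 7 that were higher are *Gsta1*, *Gm3776*, *Il36g*, *Prl2c5*, *R3hdml*, *Scin* and *Tfec*. *Gsta1* lay at 512, 526 and 395 CPM in *KEAP1* KO #3, against 112, 115 and 106 CPM in *KEAP1* KO #1 and, in *KEAP1* KO #2, 149.9, 149 and 87.6 CPM, differences of 2.09 (adjusted p = 2.86e-05) and 1.92 (adjusted p = 0.000113). *Il36g* stood at 97.6, 98.3 and 88.7 CPM, 3.55, 4.76 and 5.92 CPM and 22.8, 21.9 and 17.4 CPM in the same order, differences of 4.32 (adjusted p = 2.81e-07) and 2.197 (adjusted p = 0.000127). For both genes each sample of *KEAP1* KO #3 exceeded every sample of the other clones. *Tfec*, a transcription factor of the MiT family chosen after its values were seen, was listed at 0 in LL2 WT and at 2.56, 2.62 and 1.97 CPM in *KEAP1* KO #3, with 0.123, 0.290 and 0.0909 CPM in *KEAP1* KO #1 and, in *KEAP1* KO #2, 0.0222, 0.0936 and 0.0853 CPM. The 6 that were lower are *Col3a1*, *Fbn1*, *Galnt12*, *Hint2*, *Kif26a* and *Rnf130*. *Col3a1* lay at 15.7, 6.17 and 15.2 CPM in *KEAP1* KO #1 and, in *KEAP1* KO #2, 2.96, 2.29 and 6.89 CPM, differences of −5.01 (adjusted p = 0.000116) and −3.38 (adjusted p = 0.00922), and the second was lost without *KEAP1* KO #3 replicate 1 (−3.12, adjusted p = 0.0585) or replicate 2 (−3.06, adjusted p = 0.0595).

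The difference of *Scin* to *KEAP1* KO #2 was lost in 11 of 13 settings that left out libraries (without any 1 library of *KEAP1* KO #2, *KEAP1* KO #3 or LL2 WT, without *KEAP1* KO #1 replicate 2 and without replicate 3 of every line, adjusted p = 0.0543 to 0.213). That of *Prl2c5* to *KEAP1* KO #2 was lost in 6 (any 1 library of *KEAP1* KO #3, *KEAP1* KO #2 replicate 1 or 3, replicate 3 of every line, adjusted p = 0.0683 to 0.157). For *R3hdml* it was lost in 6 (any 1 library of *KEAP1* KO #3, *KEAP1* KO #2 replicate 2 or 3, replicate 3 of every line, 0.0534 to 0.0721) and that to *KEAP1* KO #1 in 5 (any 1 library of *KEAP1* KO #3, *KEAP1* KO #1 replicate 2 or 3, 0.0502 to 0.0917). *Gm3776* lost it against *KEAP1* KO #2 in 4 (*KEAP1* KO #3 replicate 1 or 2, *KEAP1* KO #2 replicate 3, replicate 3 of every line, 0.0777 to 0.121). Those of *Hint2* and *Kif26a* to the same clone were each lost in 4 (*KEAP1* KO #3 replicate 1, *KEAP1* KO #2 replicate 1, replicate 3 of every line and *KEAP1* KO #2 replicate 2 for *Hint2* or replicate 3 for *Kif26a*, 0.0505 to 0.104). *Fbn1* lost its difference to that clone in 3 (*KEAP1* KO #3 replicate 1, *KEAP1* KO #2 replicate 1, replicate 3 of every line, 0.052 to 0.12), and *Rnf130* its difference to *KEAP1* KO #1 in 4 (replicate 1 or 3 of that clone, *KEAP1* KO #3 replicate 2 or 3, 0.0596 to 0.113). Of the 31-base stretches of *Gm3776* 95.6% occur in other genes, as do 46.8% of those of *Prl2c5*, so their levels are uncertain to that extent.

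In 19 genes *KEAP1* KO #3 and another clone were called in opposite directions against LL2 WT, with the difference between the clones called too (8 higher in *KEAP1* KO #3, 11 lower). The count was 11 without LL2 WT replicate 1. *Arap3*, which regulates small GTPases of the cytoskeleton, lay at 15.4, 8.83 and 15.3 CPM in LL2 WT against 34.7, 35.7 and 48.6 CPM in *KEAP1* KO #3, at 2.72, 2.75 and 4.84 CPM in *KEAP1* KO #1 and at 33.3, 28.5 and 45.0 CPM in *KEAP1* KO #2. It rose in *KEAP1* KO #3 and *KEAP1* KO #2 and fell in *KEAP1* KO #1 (difference 3.53 (adjusted p = 1.43e-05)). *Nckap1l*, a WAVE complex subunit of blood cells, showed the same order at 6.41, 6.10 and 7.73 CPM, 9.31, 8.28 and 10.5 CPM and 0.275, 0.666 and 1.14 CPM in *KEAP1* KO #3, #2 and #1, with 1.83, 1.78 and 1.45 CPM in LL2 WT. *Cdx2*, a transcription factor of intestinal epithelium, lay at 0.637, 0.752 and 0.735 CPM in LL2 WT against 0.131, 0.208 and 0.147 CPM in *KEAP1* KO #3, at 6.12, 6.48 and 5.39 CPM in *KEAP1* KO #1 and at 0 in *KEAP1* KO #2, so it fell in *KEAP1* KO #3 and *KEAP1* KO #2 and rose in *KEAP1* KO #1 (difference −4.55 (adjusted p = 1.45e-06)).

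The levels of *KEAP1* KO #3 also shifted by chromosome to a small extent. Among genes averaging 1 CPM or more, and relative to all of them, the median change against LL2 WT was 0.265 (log2) higher on chromosome 13 (478 genes), the largest positive shift of the 20 chromosomes, and 0.222 lower on chromosome 7 (839 genes), the largest negative one. The spread of these medians over the 3 samples was 0.0277 and 0.0304 (SD). In *KEAP1* KO #2 and *KEAP1* KO #1 the values were 0.193 and 0.140 for chromosome 13 and −0.184 and −0.0013 for chromosome 7.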

How the data were processed

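RNA of 15 samples (5 LL2 lines, 3 biologic replicates each) was sequenced, pseudo-aligned with Kallisto to mouse transcripts and summed to genes. The authors deposited CPM, in which each sample has the same total. The methods name GRCm38.p6 and the submitters' processing notes name GRCm39 and bcl2fastq 1.9.0. Positions and promoters here are those of RefSeq for GRCm38.p6, found for 13813 tested genes. These are scaled estimated counts whose low values show no common step, so reads could not be recovered and no count model was used. An entry without a symbol (0.0214% to 0.0491% of CPM) was left out.

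Genes summing to at least 3 CPM were kept (14652 of 35880; the sums next to the limit were 3.00137 and 2.99957). log2(CPM + 0.1) was fitted with limma 3.58.1 (R 4.3.3) as a mean per line with contrasts and a mean-variance trend, and p-values were Benjamini-Hochberg adjusted over all genes tested. Genes named with values are the 10 largest rises and falls with at least 5 CPM in the higher group, up to 4 called members per list, and the genes that set the clone apart or move in opposite directions between clones, also with at least 5 CPM. Other genes are said to have been chosen later. The members and the 46 gene lists were chosen with earlier results of these data known. Shared sequence was the share of a gene's 31-base stretches found in another gene's transcripts. The alternatives were other pseudocounts, filters, scalings and fits, and leaving out libraries. Python 3.11.15, numpy 2.4.6, pandas 2.3.3 and matplotlib 3.10.9 were used.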

Additional observations from a re-analysis of the deposited data

Results flagged for a closer look

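Among the genes called between *KEAP1* KO #3 and another *KEAP1* KO clone by limma's test of the difference, 34 are listed here. These 34 set *KEAP1* KO #3 apart from both other clones, changed more in it, or are named genes called in opposite directions. In all, 679 genes were called against *KEAP1* KO #1 and 71 against *KEAP1* KO #2. The values are log2 differences of *KEAP1* KO #3 minus the other clone, and for each gene the clone with the larger difference is given.

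Against *KEAP1* KO #1 the clone was higher by 2.09 for *Gsta1* (92.9% shared stretches), 4.32 for *Il36g*, 3.09 for *Prl2c5* (46.8% shared stretches), 2.78 for the actin-severing *Scin*, 3.53 for *Arap3*, 2.56 for the lipid phosphatase *Inpp4b*, 3.26 for *Nckap1l* and 3.21 for *Ngef*. It was lower in the matrix genes *Col3a1* (−5.01), *Col5a1* (−1.49) and *Fbn1* (−3.58) and in the adhesion genes *Jam3* (−1.58) and *Pcdhac2* (−4.68). The transcription regulators *Cdx2* and *Prdm6* differed by −4.55 and −4.03. Among enzymes of sugars and lipids the values were −2.34 for *Chst2*, −3.67 for *Elovl4*, −4.20 for *Galm* and −1.80 for *Galnt12*. The remaining values against *KEAP1* KO #1 were −4.12 for *Hint2*, −1.58 for *Ica1*, −2.06 for *Gm14418*, −5.75 for *Gm7984* and −5.09 for *Tgif2-ps2*.

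Against *KEAP1* KO #2 the clone was higher by 1.29 for *Abcb1a*, 5.42 for *Cdh13*, 2.22 for *Gm3776* (95.6% of its 31-base stretches occur in other genes), 2.103 for *R3hdml* and 3.91 for *Tfec*. It was lower for *Gm14139* (−4.54), *Kif26a* (−2.24), *Pcna-ps2* (−6.68), *Renbp* (−4.36) and the ubiquitin ligase *Rnf130* (−2.17). *Renbp* was not called against LL2 WT without *KEAP1* KO #3 replicate 3 (−1.14, adjusted p = 0.132) and in 6 of the other settings that left out libraries.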

How the results depend on the processing

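A pseudocount of 1 CPM left 1303 called genes (588 higher, 715 lower), 4 rises and 8 falls apart from both other clones, 3 genes in opposite directions and a shift of 0.220 for chromosome 13. With 0.5 CPM these were 4 rises apart, 7 in opposite directions and 0.235. Quantile normalization gave 4 rises apart and −0.191 for chromosome 7, no filter on low values 9 rises apart, and a mean of at least 1 CPM 228 genes called in neither other clone. Without replicate 3 of every line, an alternative added after seeing the data, 1 rise was apart. The cause of these shifts was not tested. Same-numbered samples of *KEAP1* KO #3 and LL2 WT deviated from their line means with r between −0.019 and 0.468, so the numbers were not taken as pairs, although replicates 3 of any 2 lines deviated together (r 0.422 to 0.631). With the replicate number as a block, 2270 genes were called (966 higher, 1304 lower), all 1967 reported genes among them, and 26 genes were apart (6 higher, 20 lower). No rescaling moved the share of higher calls (45.3%) by over 10 percentage points.

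Leaving out 1 library, or replicate 3 of every line, the called genes ranged from 1638 to 2293 (791 to 988 higher, 817 to 1416 lower), those in neither other clone from 241 to 553, those apart from 12 to 22 (1 to 3 higher, 10 to 19 lower) and those in opposite directions from 11 to 23. Chromosome 13 ranged from 0.245 to 0.282 and chromosome 7 from −0.227 to −0.197. Of 186 named genes called against LL2 WT, 151 kept the call in all 22 settings and 35 lost it in at least 1. The sign turned for *Neto2* against *KEAP1* KO #2 without *KEAP1* KO #2 replicate 3 (−0.21) or *KEAP1* KO #3 replicate 1 (−0.20; range −0.21 to 0.34), for *Neurl1b* against *KEAP1* KO #2 without *KEAP1* KO #3 replicate 2 (range −0.27 to 0.017) and for *Renbp* against *KEAP1* KO #1 without *KEAP1* KO #3 replicate 3 (range −0.95 to 0.12). The depth of each sample is unknown, which limits statements on genes near the floor.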

Other observations

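Further groups of genes in *KEAP1* KO #3 are given as values, against shares of 6.09% higher and 7.34% lower over all genes. Of 25 genes of keratins, desmosomes and tight junctions 6 rose and 2 fell (1 without LL2 WT replicate 1 or *KEAP1* KO #3 replicate 1 or 2), with a median of 0.10 (0.035 to 0.18 with libraries left out). *Krt76*, a keratin of oral epithelium, lay at 0.0757, 0.0987 and 0.114 CPM in LL2 WT against 36.8, 35.2 and 20.8 CPM in *KEAP1* KO #3 (log2 fold change 7.27, standard error 0.25, adjusted p = 7.00e-10), and all samples of the clone lay above those of LL2 WT. Of 27 integrins and laminins 4 rose and 3 fell (5 without *KEAP1* KO #3 replicate 3 or replicate 3 of every line, and 1 without LL2 WT replicate 3), with a median of −0.38 (−0.56 to −0.15). Of 23 NF-kB subunits and targets 4 rose and 1 fell (2 without replicate 3 of every line; median 0.49), among them *Tnip3*, an inhibitor of NF-kB activation, at 0.232, 0.0206 and 0.209 CPM in LL2 WT against 9.57, 10.8 and 11.4 CPM in *KEAP1* KO #3 (log2 fold change 5.53, standard error 0.44, adjusted p = 1.47e-06).

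Of 16 tested ligands for T cells and macrophages 2 rose (1 without replicate 3 of every line) and 3 fell (median 0.11, −0.046 to 0.12). *Nt5e*, the ectoenzyme CD73 that makes adenosine, lay at 0.319, 0.296 and 0.424 CPM in LL2 WT against 10.29, 9.76 and 15.8 CPM in *KEAP1* KO #3 (log2 fold change 4.73, standard error 0.30, adjusted p = 1.89e-07). The samples of the 2 lines did not overlap for *Tnip3* or *Nt5e*. Of 22 genes of the TNF ligand and receptor families 4 rose and 5 fell (median 0.13, −0.0053 to 0.25), and of 21 genes of MHC class I presentation 0 rose and 2 fell (4 without *KEAP1* KO #3 replicate 3 or replicate 3 of every line), with a median of −0.42 (−0.68 to −0.05). Of 29 heat shock proteins and ER chaperones 6 rose and 2 fell (1 without *KEAP1* KO #3 replicate 2), with a median of 0.35 (0.23 to 0.48). Of 41 growth factors and their receptors 8 rose and 8 fell (median −0.47, −0.61 to −0.31).

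Other lists held few calls or counts that moved with single libraries. Of 35 genes of ATF4 targets, serine and one-carbon metabolism 4 rose and 5 fell, but 10 fell without LL2 WT replicate 2 and 1 without LL2 WT replicate 1. Of 43 lysosome and autophagy genes 9 rose and 3 fell (7 without LL2 WT replicate 2, and 1 without LL2 WT replicate 1 or 3 or *KEAP1* KO #3 replicate 1 or 2). Of 38 proteasome subunits 2 rose (5 without LL2 WT replicate 2) and 1 fell. Of 37 genes of cholesterol and fatty acid synthesis 1 rose (5 without LL2 WT replicate 2), the fatty acid synthase *Fasn*, and the desaturases *Fads1*, *Fads2* and *Fads3* fell (8.11%, near the 7.34% of all genes). Of 19 thioredoxin and peroxiredoxin genes 1 rose, the thioredoxin reductase *Txnrd1*, and 1 fell. Of 17 imprinted genes 4 rose (2 without *KEAP1* KO #3 replicate 2 or LL2 WT replicate 1 or 3) and 4 fell, of 15 retinoid genes 4 rose and 2 fell, of 26 muscle and cytoskeletal genes 4 rose (2 without replicate 3 of every line) and 3 fell, and of 16 Notch pathway genes 3 rose and 1 fell (0 to 2 with libraries left out).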
